A study of Homo sapiens with 12 samples.

Results

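The comparison described here asks whether a plasmid carrying HKDC1 changed gene expression differently in SW480 cells than in COLO320DM cells. It is the plasmid effect in SW480 (pCMV6-HKDC1 against pCMV6-Entry) minus the same effect in COLO320DM, estimated for every gene, and it was chosen by its design, not by any measured value. It used all 12 libraries of the study, 3 in each of 4 groups: COLO320DM with pCMV6-Entry, COLO320DM with pCMV6-HKDC1, SW480 with pCMV6-Entry and SW480 with pCMV6-HKDC1. Of the 60623 genes in the count table, 23684 had enough counts to be tested. COLO320DM and SW480 are established human colon cancer cell lines. The study transfected them to look for expression changes that might bear on proliferation. Every library came from cells given 10 µg of plasmid with Lipofectamine 2000 for 24 h, so the controls share the exposure to lipid and vector. Transfection was transient, HKDC1 was driven by the CMV promoter of the vector, and each line stands for a single tumour.

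HKDC1 belongs to the hexokinases, the enzymes that phosphorylate glucose on its entry into glycolysis. Heat shock genes encode chaperones that fold or refold proteins, and heat shock factor 1 raises their transcription when unfolded protein accumulates. Immediate early genes such as EGR1 answer growth factor and MAPK signals within minutes, partly through serum response factor. Integrins, collagens and filamin tie the cell's actin skeleton to the matrix around it.

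Library totals ranged from 33790733 to 45451279 counts. Replicate 1 stood apart in every group: a chi-squared statistic of the counts within a group, divided by its degrees of freedom, lay at 3.18 to 10.11 between replicates 2 and 3 and at 24.47 to 82.86 between replicate 1 and either of them. Same-numbered libraries of a line deviated together, so the fit held the number as a block in each line, and pairs 2 and 3 of a line may not be independent. The labels do not say that replicates were separate cultures, so the p-values measure only the spread between these samples. Of 10 intestinal epithelial markers, 6 reached a mean of 1 CPM, a count scaled to the library total, in COLO320DM and 9 in SW480. In COLO320DM, CDH1, KRT19, HNF4A and CDX1 were at or near 0, while CDX2 stood at 1517 CPM. The endothelial list had 0 of 6 markers at that level in either line. The leukocyte list had 3 of 8 in COLO320DM, PTPRC among them at 36.25 CPM with MS4A1 and CD3E at or near 0, and 1 of 8 in SW480. The fibroblast list had 3 of 8 in each line. COL3A1 stood at 41.06, COL1A1 at 9.33 and PDGFRB at 7.02 CPM in COLO320DM, and LUM at 15.47, COL1A1 at 3.11 and ACTA2 at 2.79 CPM in SW480, with COL1A2, DCN and THY1 near 0 in both. Summed levels of the leukocyte list spanned 43.8 to 47.2 CPM with empty vector and 35.1 to 46.4 CPM with HKDC1 in COLO320DM. They spanned 7.23 to 14.8 and 7.13 to 10.7 CPM in SW480.

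The plasmid effect differed between the lines for 10 of the 23684 genes tested (0.0422%, edgeR quasi-likelihood test, Benjamini-Hochberg adjusted p under 0.05). In 1 gene, the chaperone gene HSPA6, the effect was higher in SW480 (0.00422% of genes tested). In 9 genes it was lower (0.038%): HKDC1 itself, the antisense gene AL596223.2 that overlaps it, and AKNA, EPHA2, UNC5B, FLNA, EGR1, GTPBP2 and BMERB1. Each of the last 7 genes fell in SW480 with the plasmid. In COLO320DM none of the 7 passed the test, and their fitted changes lay between 0.00 and 0.35 on the log2 scale. At an unadjusted p under 0.05 the difference counted 1801 genes (7.6%), 810 higher in SW480 (3.42%) and 991 lower (4.18%). The count moved with replicate 1. Without the replicate block it was 2. With neither the block nor replicate 1, a setting chosen after seeing the data, it was 75, and these included all 10. With the block and without replicate 1 of SW480 it was 139.

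**Figure D1:**
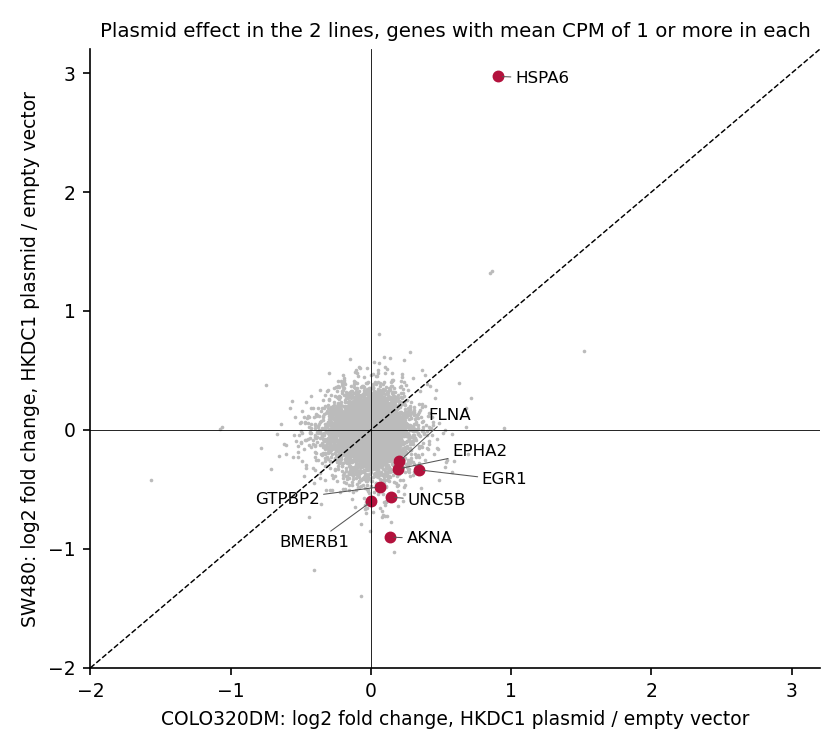
Each point is 1 of 15081 genes with a mean of at least 1 CPM in each line, HKDC1 and its antisense gene left out. The x axis is the log2 fold change with the HKDC1 plasmid in COLO320DM, the y axis that in SW480, red points passed the test of the difference, the dashed line marks equal effects, and 1 gene lies outside the axes. HSPA6 stands far above the line of equal effects at 0.91 and 2.97, and the 7 other red points lie below 0 on the SW480 axis.

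HKDC1 (ENSG00000156510, GRCh38 chromosome 10, 69220332 to 69267552, plus strand) had the largest difference among the called genes, and the lines started from different levels. In COLO320DM with empty vector it had 0, 0.0238 and 0.0231 CPM in replicates 1, 2 and 3, which is 2 counts in all. With the plasmid these libraries held 6580.0, 9179 and 9640.0 CPM. SW480 expressed the gene without the plasmid, at 38.4, 34.7 and 34.1 CPM, and reached 13580.0, 12230.0 and 14310.0 CPM with it. The plasmid thus left the transcript at a higher level in SW480 in every library, while its ratio to the control was smaller there. That ratio was 373 in SW480 (95% counting interval 362 to 385) and 533700 in COLO320DM (147700 to 4407000, wide because the control held 2 counts). The fitted difference of −10.23 (edgeR adjusted p = 5.304e-30) depends on the prior count given to those near-empty controls. AL596223.2 (ENSG00000231748, chromosome 10, 69265342 to 69268148, minus strand) had 0 counts in COLO320DM with empty vector and at least 45220-fold more with the plasmid, taking 3 counts over the whole group as the floor. In SW480 its ratio was 610 (547 to 683). Reads of the antisense gene and of HKDC1 cannot be told apart in these counts. These intervals cover counting error only.

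HSPA6 (ENSG00000173110, chromosome 1, 161524540 to 161526894, plus strand) encodes an HSP70 chaperone that cells make almost only under stress. In SW480 it had 1.30, 0.572 and 0.748 CPM with empty vector and 6.43, 5.87 and 7.99 CPM with HKDC1. In COLO320DM it had 0.683, 1.36 and 1.02 CPM with empty vector and 1.78, 1.68 and 2.23 CPM with HKDC1. Every SW480 library with HKDC1 was above every other library, and the COLO320DM groups did not overlap either. The log2 fold change was 2.97 in SW480 (SE 0.20, edgeR adjusted p = 6.186e-13) and 0.91 in COLO320DM (SE 0.22, adjusted p = 0.164), a difference of 2.06 (SE 0.31, adjusted p = 0.000525). The values rest on 21 to 50 counts per library in SW480 with empty vector and 226 to 279 with HKDC1, against 29 to 57 and 60 to 77 in COLO320DM. Leaving out any replicate number, in either line or in both, kept the call, with differences of 1.58 to 2.65. The call was lost without the replicate block (2.06, adjusted p = 1.0) and with limma-voom (2.07, adjusted p = 0.0534). DESeq2 gave the same size, 2.06, with an unadjusted p of 5.669e-07 and no adjusted p. Reads of HSPA6 could be shared with its near-copy HSPA7.

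The sequence before the start of HSPA6 is shown with that of HSPA1A, the main stress-inducible HSP70, because HSPA6 had the largest positive difference among called genes and both windows carry heat shock elements. Each line gives 250 bases that end at the base before the RefSeq start (GRCh38.p14), 5′ to 3′ on the strand of the gene. Capitals mark the core of a heat shock element as searched, GAANNTTC or TTCNNGAA, each of which reads the same on both strands. HSPA6 lies at chr1:161524290-161524539 on the plus strand and HSPA1A at chr6:31815293-31815542 on the plus strand.
HSPA6: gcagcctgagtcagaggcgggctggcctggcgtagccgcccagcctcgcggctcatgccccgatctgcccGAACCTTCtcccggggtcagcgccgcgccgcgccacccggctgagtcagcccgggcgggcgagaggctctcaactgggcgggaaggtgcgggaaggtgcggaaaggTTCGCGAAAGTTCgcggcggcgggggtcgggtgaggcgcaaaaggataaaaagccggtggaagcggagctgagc
HSPA1A: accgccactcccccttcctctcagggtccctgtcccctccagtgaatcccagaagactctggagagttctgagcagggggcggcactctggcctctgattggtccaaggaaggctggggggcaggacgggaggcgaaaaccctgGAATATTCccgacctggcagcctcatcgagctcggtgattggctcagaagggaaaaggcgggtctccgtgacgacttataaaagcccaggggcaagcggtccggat
HSPA6 held 2 matches of the first form and 1 of the second, first bases 180, 69 and 74 bases before the start, and the last pair overlap in a single run. HSPA1A held 1 match, 106 bases before the start. Of 35116 RefSeq windows of the same length, 11.58% held a match of either form and 0.145% held 3 or more. HSPA8 (4 matches) and 1 of the HSP90AA1 windows (3 matches) were also among those with 3 or more, and neither gene was called. Matches describe the letters of the window and are not binding sites shown by these data. Windows were found for 7 of the 10 called genes, and of these HSPA6 was the 1 with such a match.

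HSPA1A (ENSG00000204389) and HSPA1B are near-identical copies next to each other on chromosome 6, so their reads cannot be assigned with certainty. HSPA1A had 142, 111 and 107 CPM with empty vector and 215, 207 and 228 CPM with HKDC1 in COLO320DM. In SW480 it had 252, 55.8 and 61.4 CPM with empty vector and 321, 172 and 257 CPM with HKDC1. It was higher with HKDC1 in 3 of 3 pairs of each line, but SW480 replicate 1 began at a level that the other control libraries did not reach. The fitted changes were 1.34 (SE 0.38) in SW480 and 0.86 (SE 0.37) in COLO320DM, and neither passed the test. The difference of 0.47 (SE 0.53, edgeR adjusted p = 0.89) did not pass, and without SW480 replicate 1 it was 0.97 and did (adjusted p = 0.000193). HSPA1B gave the same difference, 0.47.

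DNAJB1, the HSP40 partner that feeds clients to HSP70, rose in both lines. It had 58.9, 55.7 and 54.7 CPM with empty vector and 69.9, 73.9 and 72.2 CPM with HKDC1 in COLO320DM. In SW480 the values were 257, 131 and 142 CPM with empty vector and 287, 174 and 190.2 CPM with HKDC1. Its fitted change was 0.33 in SW480 and 0.35 in COLO320DM, each past the test (edgeR adjusted p = 0.00167 and 0.00698). The difference of −0.02 had an SE of 0.08 and changed sign under 4 of the alternatives tried.

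Over the heat shock list, 31 of 33 members had enough counts to be tested, and 1 of them, HSPA6, passed the test of the difference. The difference was above 0 in 24 members and below 0 in 7, with a median of 0.076, against 12349 above and 11327 below 0 and a median of 0.010 over all genes tested. The median change was 0.136 in SW480 and 0.072 in COLO320DM. HSP90AA1, the inducible cytosolic HSP90, rose in SW480 by 0.32 and had 0.12 in COLO320DM (difference 0.20, SE 0.09, adjusted p = 0.583). DNAJA1, another HSP40, rose in SW480 by 0.31 and had 0.11 in COLO320DM. HSPE1, the mitochondrial HSP10, rose in SW480 by 0.29 and had 0.06 in COLO320DM (difference 0.23, SE 0.08, adjusted p = 0.447). Constitutive HSPA8 had a difference of 0.25 (SE 0.16). Of the heat shock transcription factors, HSF1 had a difference of −0.21 and HSF2 of 0.25, and neither passed. DNAJB2, an HSP40 known from neurons, had −0.28. Pair differences of the lines did not overlap for 5 members, 3 of them higher in SW480 and 2 lower, against 6.97% and 7.11% of all genes tested. The median of the list was 0.025 without SW480 replicate 2, 0.018 without replicate 2 of both lines and 0.09 without replicate 1, and DNAJB1, HSP90AA1, DNAJA1, HSPA1A, HSPA1B, HSPA8 and HSF1 were named after their values were seen.

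**Figure D2:**
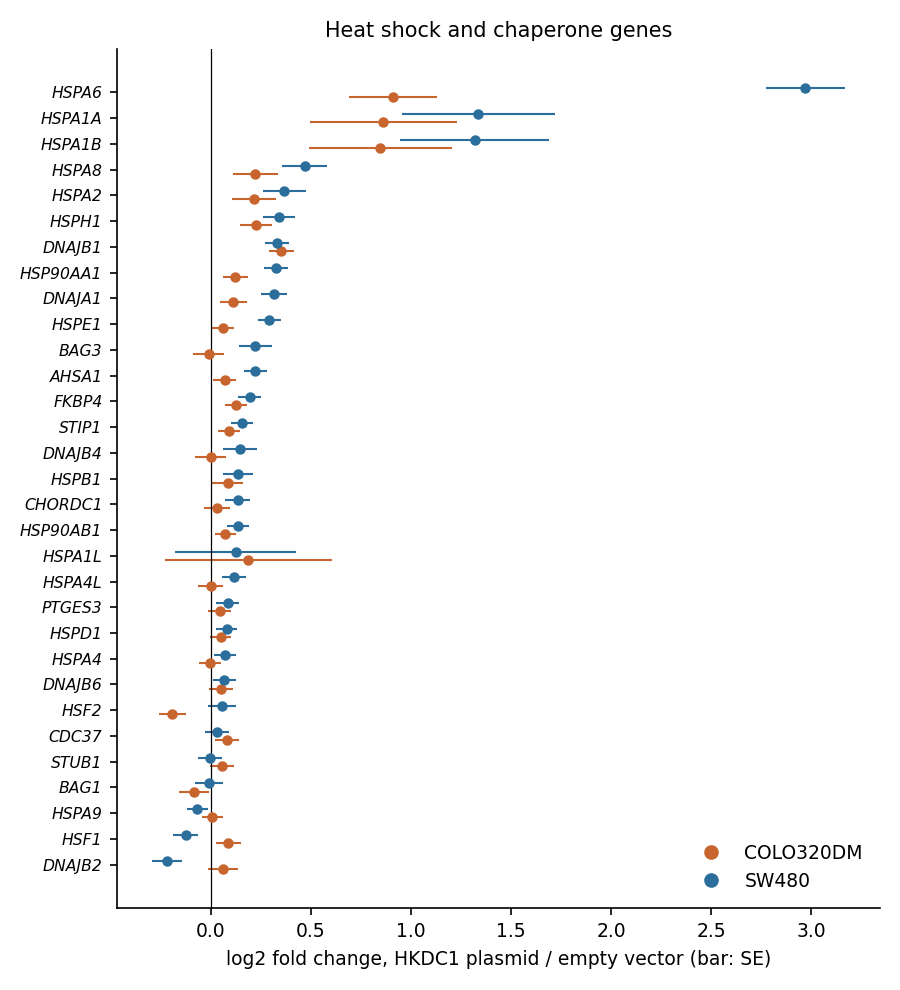
Fitted log2 fold change with the HKDC1 plasmid (x axis) of the 31 heat shock and chaperone genes tested, in COLO320DM (orange) and SW480 (blue), with bars of 1 SE. HSPA6 is the gene whose lines lie farthest apart, at 0.91 and 2.97, while DNAJB1 sits at 0.35 and 0.33.

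AKNA (ENSG00000106948, chromosome 9, 114334156 to 114394405, minus strand), an AT-hook protein described as a transcription factor and as a centrosome organiser, showed the most negative difference among the called genes other than HKDC1 and AL596223.2. In SW480 it had 8.43, 42.5 and 34.7 CPM with empty vector and 6.65, 19.96 and 16.7 CPM with HKDC1. COLO320DM levels were 28.0, 43.9 and 38.5 CPM with empty vector and 29.6, 46.7 and 45.1 CPM with HKDC1. It was lower with HKDC1 in 3 of 3 SW480 pairs and higher in 3 of 3 COLO320DM pairs. The change was −0.90 in SW480 and 0.13 in COLO320DM, a difference of −1.03 (SE 0.13, edgeR adjusted p = 5.622e-05). Replicate 1 of SW480 was low with either plasmid, and its pair difference was −0.32, against −1.07 and −1.04 in the others. The call held when each replicate number was left out and was lost with a block that sets replicate 1 against 2 and 3 (−1.03, adjusted p = 0.0578).

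EPHA2 and UNC5B are receptors of guidance cues, EPHA2 a tyrosine kinase bound by ephrin-A ligands and UNC5B a netrin receptor. EPHA2 (ENSG00000142627, chromosome 1, 16124337 to 16156069, minus strand) had 125, 300.2 and 283 CPM with empty vector and 111, 219 and 223 CPM with HKDC1 in SW480. For COLO320DM the values were 19.0, 31.6 and 29.7 CPM with empty vector and 23, 33.1 and 35.3 CPM with HKDC1. The direction was opposite in the lines, lower in 3 of 3 SW480 pairs and higher in 3 of 3 COLO320DM pairs, with a difference of −0.52 (SE 0.09, edgeR adjusted p = 0.00416). UNC5B (ENSG00000107731, chromosome 10, 71212570 to 71302864, plus strand) had 14.6, 19.4 and 17.3 CPM with empty vector and 12.7, 11.7 and 10.2 CPM with HKDC1 in SW480. In COLO320DM its values were 16.4, 26.5 and 25.2 CPM and 18.7, 30.1 and 26.2 CPM. All 3 SW480 libraries with HKDC1 were below all 3 with empty vector, whereas each COLO320DM pair was higher with HKDC1 (difference −0.71, SE 0.13, adjusted p = 0.008). Both calls were lost without replicate 2 of SW480 (EPHA2 −0.47, adjusted p = 0.101, and UNC5B −0.64, adjusted p = 0.178) and without replicate 1 of COLO320DM (−0.48, adjusted p = 0.0633, and −0.69, adjusted p = 0.0902). EPHA2 also lost it without COLO320DM replicate 3 (−0.49, adjusted p = 0.0674).

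FLNA (ENSG00000196924, chromosome X, 154348524 to 154374638, minus strand) encodes filamin A, which crosslinks actin filaments and anchors them to integrins. It had 852, 899.7 and 797 CPM with empty vector and 747, 639 and 741 CPM with HKDC1 in SW480. In COLO320DM it had 269, 299 and 286 CPM with empty vector and 338, 320.4 and 324 CPM with HKDC1. Within each line the libraries with HKDC1 lay entirely to 1 side of those with empty vector, below them in SW480 and above them in COLO320DM. FLNA fell by 0.26 in SW480 on the log2 scale and had 0.20 in COLO320DM, a difference of −0.47 (SE 0.09, edgeR adjusted p = 0.0144). The call was lost without COLO320DM replicate 1 (−0.40, adjusted p = 0.213), COLO320DM replicate 3 (−0.48, adjusted p = 0.0682) or SW480 replicate 2 (−0.37, adjusted p = 0.459).

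EGR1 (ENSG00000120738, chromosome 5, 138465479 to 138469303, plus strand), a zinc finger transcription factor of the immediate early class, was expressed at very different levels in the lines. In SW480 it had 187, 627 and 569 CPM with empty vector and 158, 496 and 426 CPM with HKDC1. The COLO320DM values were 2.097, 3.60 and 3.96 CPM with empty vector and 1.71, 5.54 and 5.30 CPM with HKDC1. Pair differences were −0.248, −0.339 and −0.416 in SW480 and −0.235, 0.56 and 0.379 in COLO320DM, so pair 1 was lower with HKDC1 in both lines, and pairs 2 and 3 were lower in SW480 alone. The fitted difference was −0.68 (SE 0.13, edgeR adjusted p = 0.0278). It was −0.50 (adjusted p = 0.288) without COLO320DM replicate 2, −0.63 (0.26) without COLO320DM replicate 3 and −0.70 (0.104) without SW480 replicate 2. DESeq2 gave −0.65 with an adjusted p of 0.343.

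EGR1 and FLNA are shown with their upstream sequence because the window of each held a CArG box, the element bound by serum response factor, and no other called gene with a window did. The lines again give 250 bases before the RefSeq start (GRCh38.p14), 5′ to 3′ on the strand of the gene, with CArG boxes in capitals. EGR1 lies at chr5:138465229-138465478 on the plus strand and FLNA at chrX:154374635-154374884 on the minus strand.
EGR1: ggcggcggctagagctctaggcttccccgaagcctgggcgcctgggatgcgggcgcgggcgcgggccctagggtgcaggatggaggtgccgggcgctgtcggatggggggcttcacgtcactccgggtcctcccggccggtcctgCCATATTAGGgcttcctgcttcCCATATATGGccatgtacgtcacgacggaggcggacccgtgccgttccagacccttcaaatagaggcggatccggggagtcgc
FLNA: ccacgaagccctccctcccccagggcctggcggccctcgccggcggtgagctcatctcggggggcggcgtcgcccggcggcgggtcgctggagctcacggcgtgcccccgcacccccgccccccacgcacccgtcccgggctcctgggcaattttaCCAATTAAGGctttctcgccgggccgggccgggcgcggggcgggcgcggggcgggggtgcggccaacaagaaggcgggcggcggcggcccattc
EGR1 held 2 boxes, 105 and 83 bases before the start, and FLNA held 1, 94 bases before it. A CArG box on either strand was present in 1.16% of the 35116 windows, and 0.031% held 2 or more. Whether the boxes had a part in the differences was not tested.

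GTPBP2 (ENSG00000172432, chromosome 6, 43605316 to 43629264, minus strand), a GTP-binding protein that takes part in the rescue of stalled ribosomes, had 30.02, 59.8 and 55.1 CPM with empty vector and 27.1, 37.2 and 37.0 CPM with HKDC1 in SW480. COLO320DM levels were 36.0, 46.3 and 45.8 CPM with empty vector and 40.2, 47.7 and 45.3 CPM with HKDC1. The decrease in SW480 was thus carried by pairs 2 and 3, and the difference was −0.54 (SE 0.11, edgeR adjusted p = 0.0292). BMERB1 (ENSG00000166780, chromosome 16, 15434475 to 15625028, plus strand), a protein named for its bMERB domain, had 6.18, 11.2 and 11.1 CPM with empty vector and 4.95, 7.19 and 6.41 CPM with HKDC1 in SW480. In COLO320DM its 6 libraries held 31.7, 37.9 and 37.2 CPM and 32.3, 38.4 and 36.2 CPM, with a fitted change of 0.00 (SE 0.08). BMERB1 had a difference of −0.60 (SE 0.12, adjusted p = 0.0376). Both calls were lost without COLO320DM replicate 1 (GTPBP2 −0.50, adjusted p = 0.247, and BMERB1 −0.59, adjusted p = 0.126), COLO320DM replicate 3 (−0.58, 0.0687, and −0.62, 0.106), SW480 replicate 2 (−0.45, 0.654, and −0.60, 0.391) and SW480 replicate 3 (−0.50, 0.106, and −0.52, 0.11).

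**Figure D3:**
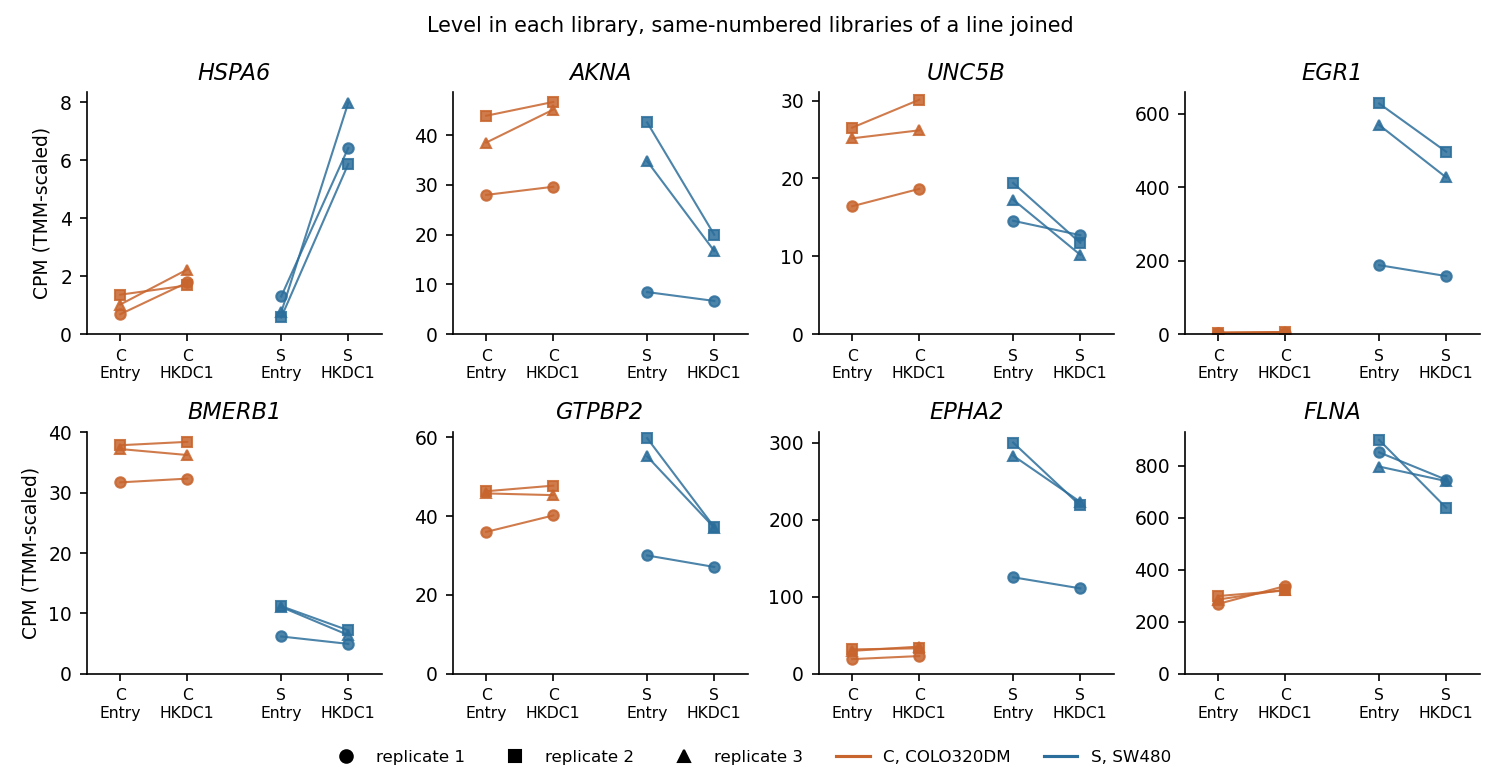
Level of the 8 called genes other than HKDC1 and AL596223.2 in each library, in CPM scaled by TMM factors (y axis from 0), with COLO320DM in orange and SW480 in blue. Lines join same-numbered libraries with empty vector and with HKDC1. HSPA6 climbs in all 3 SW480 pairs, while the other 7 genes slope down in SW480 and replicate 1 of SW480 is the lowest control for 6 of them.

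For all 8 genes the pair differences of the lines, taken on log2(CPM + 0.5), did not overlap, as in 14.1% of all genes tested. This is no separate support, since the test chose the genes on the same libraries. For EGR1 the separation depends on the added 0.5, as its COLO320DM levels are low, and without it pair 1 of COLO320DM falls inside the SW480 range. In 6 of the 7 lower genes the decrease in SW480 was smallest in pair 1, whose control library also had the lowest level. FLNA was the exception, with −0.19, −0.49 and −0.11 in pairs 1, 2 and 3. All 8 genes kept their direction under every alternative that gave a value for them.

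**Figure D4:**
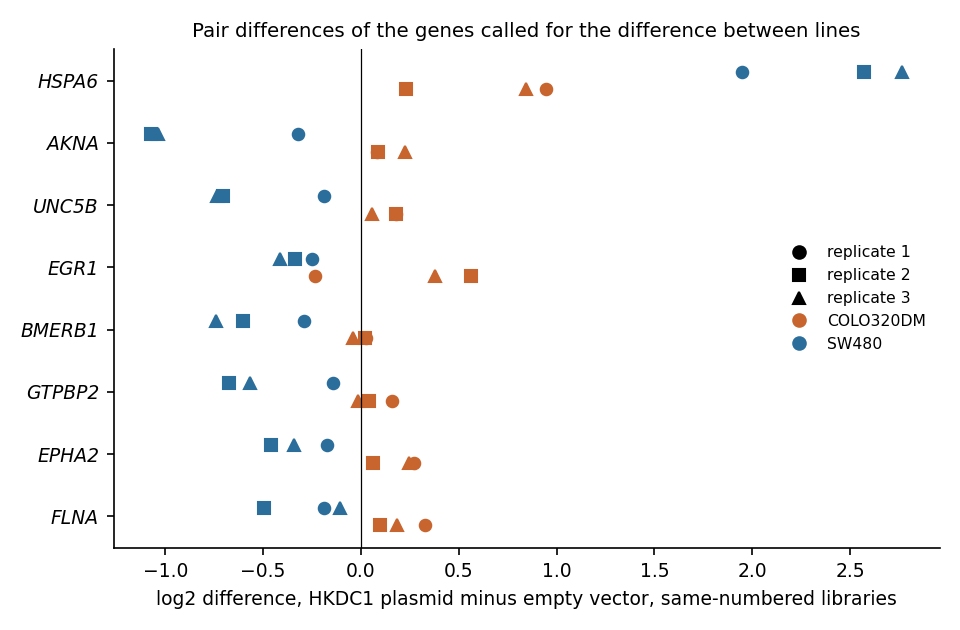
Difference of log2(CPM + 0.5) between HKDC1 and empty vector in same-numbered libraries (x axis) for the 8 called genes, COLO320DM in orange and SW480 in blue, with symbols for replicates 1, 2 and 3. On this scale the lines do not overlap for any gene. The closest approach is EGR1, whose pair 1 lies at −0.235 in COLO320DM and −0.248 in SW480. That order depends on the added 0.5, because EGR1 had 2.097 and 1.71 CPM in COLO320DM pair 1, and without it the lines overlap.

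GC content varied with these values. Over 17696 genes with a mean of at least 1 CPM, the correlation of the pair difference with the GC percentage of the longest transcript was 0.52, 0.01 and −0.04 in COLO320DM pairs 1, 2 and 3 and −0.24, −0.35 and 0.15 in SW480. It was −0.16 for the difference between lines. These are descriptions across genes of the same libraries. The median difference was 0.078 in the decile of genes lowest in GC and −0.096 in the highest decile. Called genes were GC-rich, from percentile 63.3 of the genes (BMERB1) to percentile 91.5 (FLNA). With a smooth GC trend removed from each library, a fit added after seeing the data, 7 genes were called. HSPA6 (2.13, adjusted p = 0.00377), EPHA2 (−0.44, adjusted p = 0.0226), FLNA (−0.38, adjusted p = 0.0349) and BMERB1 (−0.59, adjusted p = 0.0465) stayed called. AKNA (−0.98, adjusted p = 0.138), UNC5B (−0.62, adjusted p = 0.111), EGR1 (−0.65, adjusted p = 0.3) and GTPBP2 (−0.50, adjusted p = 0.138) did not.

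Beyond HSPA6, no gene on the higher side passed the test. The protein-coding genes of smallest p there were GH1 (1.09, edgeR adjusted p = 0.11), the RNA helicase DHX29 (0.37, adjusted p = 0.156), the guidance ligand SEMA3C (0.75), the PI3-kinase regulatory subunit PIK3R3 (0.45), FAM13B (0.42), LIX1 (0.46), the mitochondrial tRNA methyltransferase subunit TRMT10C (0.35) and PIBF1 (0.31), with adjusted p of 0.176 to 0.305 for the last 6. GH1 overlaps AC127029.3 on the same strand, which had 1.08, and the growth hormone polyadenylation signal is part of pCMV6 vectors. GH1 had 2.90, 2.55 and 3.42 CPM with empty vector and 0.902, 1.48 and 1.94 CPM with HKDC1 in COLO320DM. In SW480 it had 3.94, 2.997 and 2.53 CPM with empty vector and 3.16, 2.81 and 3.58 CPM with HKDC1. It thus fell in COLO320DM (−1.06, adjusted p = 0.00698) and had 0.03 (SE 0.17) in SW480, where it did not pass. PIBF1 and FAM13B likewise fell in COLO320DM (−0.34 and −0.40) with SW480 values of −0.03 and 0.02. On the lower side the next genes were NFKB2, a subunit of NF-κB (−0.48, adjusted p = 0.0518), and ECE1, the endothelin-converting enzyme (−0.43, adjusted p = 0.0687). Among other biotypes, AL645728.2 (2.49, adjusted p = 0.0869), AC020765.5 (2.22, 0.11), AL157871.4 (−0.48, 0.11) and AL133415.1 (−0.37, 0.12) had the smallest p and did not pass. AL645728.2 had 8, 9 and 67 counts in COLO320DM with empty vector, so its difference rests mostly on 1 library, and it ranged from 0.66 to 3.49 over the alternatives. AC020765.5 had 4 to 42 counts per library.

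Genes of the immediate early and MAPK list, all 29 of which were tested, had a median difference of −0.140, with 21 below 0, 8 above and 1, EGR1, called. Pair differences were lower in SW480 without overlap for 11 of them (37.9%, against 7.11% of all genes tested). IER3, an apoptosis regulator, had 210.2, 416 and 393 CPM with empty vector and 193, 315 and 289 CPM with HKDC1 in SW480. In COLO320DM it had 2.404, 2.69 and 2.57 CPM with empty vector and 2.37, 3.58 and 3.39 CPM with HKDC1 (difference −0.60, SE 0.14, edgeR adjusted p = 0.103). FOS, the AP-1 subunit, had −0.44, and SPRED1, an inhibitor of RAS signalling, had 0.26. The list median per pair was −0.048, −0.117 and −0.223 in SW480 and 0.0, −0.042 and −0.035 in COLO320DM, so every SW480 pair was below every COLO320DM pair by a small margin. The median remained negative, from −0.234 to −0.102, when replicates were left out (−0.234 without COLO320DM replicate 2 and −0.212 without replicate 2 of both lines) and was −0.122 with the GC trend removed.

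Matrix, integrin and protease genes had a median difference of −0.261 over the 33 of 37 members tested, with 29 below 0 and 4 above, and none passed the test. The median change was −0.202 in SW480 and 0.086 in COLO320DM. In SW480, 5 members passed the test of the plasmid effect as lower, against 0.595% of all genes tested. ITGA5, the fibronectin receptor subunit, had 37.4, 42.0 and 37.4 CPM with empty vector and 33.4, 35.4 and 34.2 CPM with HKDC1 in SW480. COLO320DM libraries held 62.6, 70.3 and 72.4 CPM with empty vector and 73.3, 78.7 and 85.1 CPM with HKDC1. It was lower in 3 of 3 SW480 pairs and higher in 3 of 3 COLO320DM pairs (difference −0.39, SE 0.09, edgeR adjusted p = 0.0869). COL7A1, the anchoring fibril collagen (−0.64), the matrix glycoprotein TNC (−0.39) and the hemidesmosome integrin ITGB4 (−0.59) had adjusted p of 0.126 to 0.347. ITGB4 had 40 to 61 counts per COLO320DM library. In 12 members (36.4%, against 7.11% of all genes tested) the pair differences were lower in SW480 without overlap, and in 1 member they were higher (against 6.97%). Among the 12, LAMB3 had a fitted difference of 0.79, opposite to its pairs, with a mean of 0.0469 CPM in COLO320DM with empty vector. The list median per pair was −0.043, −0.225 and −0.181 in SW480 and 0.066, 0.021 and 0.131 in COLO320DM, and it was −0.235 with the GC trend removed.

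NF-κB and cytokine genes had a median difference of −0.238 over 21 of 25 members tested, 17 of them below 0, and none passed. That median was −0.418 without SW480 replicate 1, −0.130 without SW480 replicate 3, −0.446 without replicate 1 of both lines and −0.149 without replicate 3 of both. NFKB2 had 63.1, 106 and 97.5 CPM with empty vector and 57.0, 75.8 and 79.6 CPM with HKDC1 in SW480. The COLO320DM values were 13.1, 20.2 and 20.1 CPM with empty vector and 15.8, 20.97 and 22.9 CPM with HKDC1, so 3 of 3 SW480 pairs were lower and 3 of 3 COLO320DM pairs higher with HKDC1. TNFAIP2, induced by tumour necrosis factor, had −0.62, the chemokine CXCL3 −0.58 and the cytokine IL32 −0.31. With empty vector TNFAIP2 had a mean of 1.18 CPM and CXCL3 of 0.65 CPM in COLO320DM, against 356 and 56.1 CPM in SW480. CXCL3 had a fitted change of 0.38 (SE 0.25) in COLO320DM and −0.20 (SE 0.09) in SW480. Pair differences of the lines overlapped for CXCL3 and IL32, and SW480 pair 1 was higher with HKDC1 for both (0.195 and 0.126). In SW480 the list median was 0.018 in pair 1 and −0.198 and −0.402 in pairs 2 and 3. COLO320DM pairs had −0.011, 0.0 and 0.0, so pair 1 did not separate the lines.

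Genes of the integrated stress response, which ATF4 drives when translation initiation is inhibited, had a median difference of −0.152 over 20 members, 14 below 0, and none passed. The examples of smallest p were DDIT4, an inhibitor of mTORC1 (−0.29, edgeR adjusted p = 0.224), ATF5 (−0.38), the serine synthesis enzyme PHGDH (−0.25) and PPP1R15A, which recruits the eIF2α phosphatase (−0.25). With the GC trend removed this median was −0.078. Notch genes had −0.167 over 12 members with 11 below 0, or 9 with the GC trend removed. The Notch median was −0.277 without SW480 replicate 3, and −0.254, −0.108 and −0.283 without replicate 1, 2 or 3 of both lines. The receptor NOTCH3 had −0.78, with 33 to 78 counts per SW480 library, and the ligand JAG1 −0.29. Autophagy and lysosome genes had −0.173 over 15 members, 12 below 0, among them the cargo receptor SQSTM1 (−0.30) and the lysosomal protease CTSB (−0.27). MAP1LC3B, which marks autophagosomes, had −0.23, and LAMP3 had −1.38 with overlapping pairs and 13 to 35 counts per COLO320DM library. MHC class I genes had −0.152 over 12 members, 8 below 0, among them TAPBP, the tapasin gene of peptide loading (−0.28), and −0.096 with the GC trend removed. In these 4 lists every SW480 pair median lay below every COLO320DM pair median, and no member passed the test of the difference.

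Axon guidance genes, to which EPHA2 and UNC5B belong, had a median difference of −0.114 over 24 members, 17 below 0 and 2 called. SLIT1, a ligand of ROBO receptors, had −1.19 (SE 0.27, edgeR adjusted p = 0.0869). Its values were 2.73, 7.52 and 6.07 CPM with empty vector and 1.68, 3.28 and 2.89 CPM with HKDC1 in SW480, against 0.919, 1.07 and 0.856 CPM and 0.756, 1.37 and 1.10 CPM in COLO320DM. SEMA3C was an exception in direction, at 0.75, with 32 to 93 counts per SW480 library. With the GC trend removed the list median was −0.047, and it was −0.051 without replicate 1 of COLO320DM, −0.067 and −0.200 without SW480 replicate 2 or 3, and −0.057 and −0.219 without replicate 1 or 3 of both lines.

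DNA replication and G1/S genes lay on the other side of 0. All 46 members were tested, 38 were above 0, the median difference was 0.087 and none passed. In SW480 the median change was 0.141, and 5 members passed the test of the plasmid effect as higher, against 0.165% of all genes tested. In COLO320DM the median change was 0.052 and none passed. GINS2, a subunit of the replicative helicase, had 69.1, 44.1 and 50.9 CPM with empty vector and 73.1, 60.4 and 62.8 CPM with HKDC1 in SW480. In COLO320DM it had 66.1, 59.1 and 61.9 CPM with empty vector and 70.4, 56.2 and 60.1 CPM with HKDC1 (difference 0.28, SE 0.09, edgeR adjusted p = 0.404). GINS1 (0.27), the uracil glycosylase UNG (0.29) and the helicase subunit MCM4 (0.22) were similar in size. SW480 pair 1 had a list median of 0.050, inside the COLO320DM range of 0.037 to 0.081, and pairs 2 and 3 had 0.195 and 0.225. Without replicate 2 of both lines the median difference was 0.029, and without SW480 replicate 2 or 3 it was 0.043 or 0.053. Cholesterol synthesis genes had 0.042 over 25 members, 18 above 0, with SC5D (0.23), SQLE (0.20), HMGCS1 (0.20) and ACAT2 (0.17) as the members of smallest p and none called. Their pair medians were −0.017, 0.176 and 0.174 in SW480 and 0.095, 0.088 and 0.031 in COLO320DM, so SW480 pair 1 lay below every COLO320DM pair. Pair differences were higher in SW480 without overlap for 1 member (4.0%, against 6.97% of all genes tested). The cholesterol median was 0.103, 0.022 and 0.013 without SW480 replicate 1, 2 or 3, 0.083 and 0.074 without COLO320DM replicate 1 or 2, 0.135 and 0.011 without replicate 1 or 3 of both lines, and 0.075 with the GC trend removed.

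**Figure D5:**
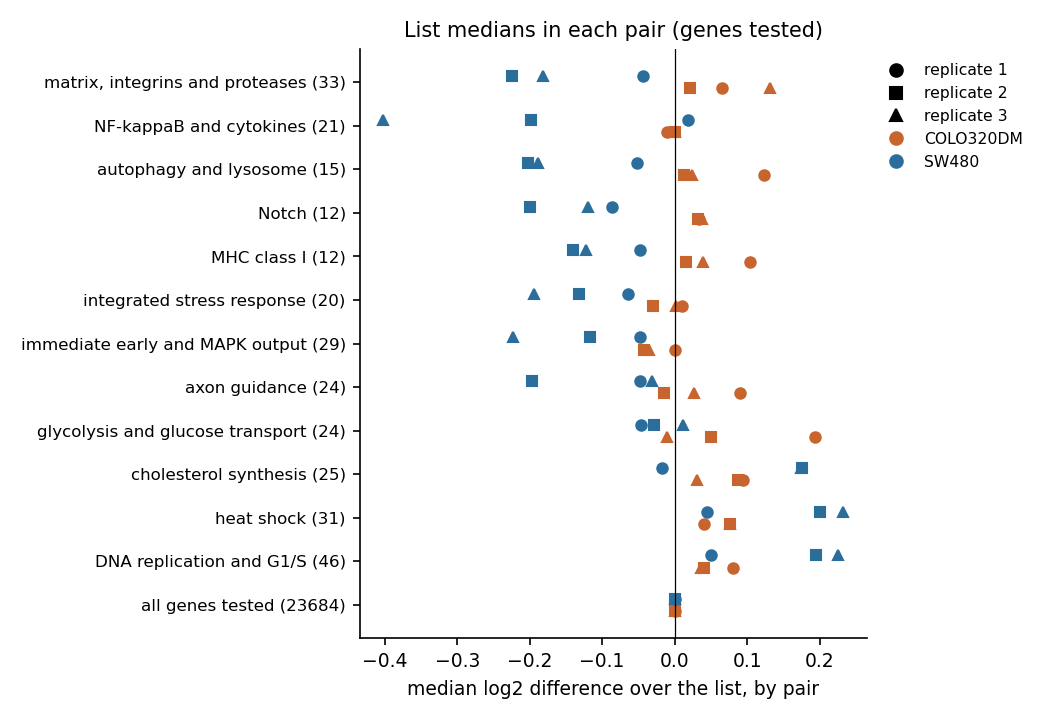
Median of log2(CPM + 0.5) with HKDC1 minus empty vector over the tested genes of each list (number in brackets), for each pair of same-numbered libraries, COLO320DM in orange and SW480 in blue. For matrix, Notch, autophagy and MHC class I genes every SW480 pair is below 0 and every COLO320DM pair above it, whereas DNA replication and heat shock medians are high in SW480 pairs 2 and 3 and close to COLO320DM in pair 1.

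Glycolysis and glucose transport genes, the pathway in which HKDC1 acts, had a median difference of −0.097 over 24 members, 18 below 0, and none passed the test. The median change was 0.094 in COLO320DM and −0.029 in SW480. In COLO320DM it was carried by pair 1, with pair medians of 0.194, 0.050 and −0.010, and without COLO320DM replicate 1 the median difference was −0.029. It was −0.151 without SW480 replicate 3, −0.032 and −0.194 without replicate 1 or 3 of both lines, and −0.065 with the GC trend removed. COLO320DM pair 1 was also the pair with a correlation of 0.52 with GC percentage. PFKFB3, which makes the activator of phosphofructokinase, had 20.99, 22.5 and 21.8 CPM with empty vector and 18.1, 19.1 and 19.1 CPM with HKDC1 in SW480. For COLO320DM the values were 29.7, 31.4 and 29.9 CPM with empty vector and 33.6, 31.7 and 32.2 CPM with HKDC1 (difference −0.31, SE 0.10, edgeR adjusted p = 0.419). PFKL, the liver-type phosphofructokinase, had −0.26, PFKFB4, a relative of PFKFB3, had −0.34 and the enolase ENO2 −0.26. HK2, HK1 and ADPGK, which also phosphorylate glucose, did not pass the test of the difference. HK2 had −0.15 (SE 0.08, adjusted p = 0.679), HK1 −0.15 (SE 0.09, adjusted p = 0.706) and ADPGK −0.07 (SE 0.09, adjusted p = 0.899). HK3 had 1 to 3 counts per group and was not tested.

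Genes that passed in a line are described here with their values in the other line. Passing in 1 line alone is not a test of the difference, and the choice favours larger changes in the line where they passed. In SW480 180 genes passed (0.76% of genes tested), 39 higher (0.165%) and 141 lower (0.595%), and in COLO320DM 18 passed (0.076%), 4 higher (0.0169%) and 14 lower (0.0591%). The 37 genes that passed as higher in SW480, HKDC1 and AL596223.2 left out, had a median of 0.30 there and 0.058 in COLO320DM. In COLO320DM 31 had the same sign, and 1 of the 37 passed the test of the difference. The 141 that passed as lower in SW480 had a median of −0.405 there and 0.015 in COLO320DM, where 60 had the same sign and 76 the opposite. The test of the difference called 7 of them as lower, against 0.038% of all genes tested. The choice itself raises this share, because the SW480 effect is part of the difference. Of these 141 genes, 49 had a mean under 1 CPM in COLO320DM, near the limit of what these libraries count. The 14 genes that passed as lower in COLO320DM had a median of −0.385 there and −0.028 in SW480, 9 with the same sign. The test of the difference called 0 of these 14. The 2 genes that passed as higher in COLO320DM besides HKDC1 and AL596223.2, DNAJB1 and AL671762.1, also passed in SW480. The test of the difference called 0 of these 2. Over 23682 genes the effects in the lines had a Pearson correlation of 0.002, across genes, and 47.4% shared a sign. Genes with a change of 0 counted as not sharing a sign, and in COLO320DM 48.0% of genes were above 0 and 49.5% below. Genes with few counts in 1 line are included, and whether the effects in the lines are related was not tested. Medians of the absolute effect were 0.096 in SW480 and 0.082 in COLO320DM. The SW480 count of 180 was 13 without SW480 replicate 2 and 537 without SW480 replicate 1.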

How the data were processed

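Poly-A RNA was sequenced in 12 libraries of the 2 cell lines, with random-primed cDNA and no strand-marking step mentioned, per the labels' protocols. The authors deposited raw counts per gene with Ensembl identifiers. Per the submitters' processing notes, GRCh38 was the build and HISAT2 2.1.0 and limma were among the tools. The sources used here do not give the counter, the annotation or the strandedness, so overlapping antisense genes cannot be told apart. All 12 count columns were used, and 0 columns of per-sample values were left out. GENCODE 29 or the reference name table gave a symbol for 58584 of 60623 identifiers.

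The counts were fitted in edgeR 4.0.16 (R 4.3.3) with filterByExpr (minimum count 10, minimum total 15), TMM factors, a plasmid effect nested in line and the replicate number within line as a block. The residual degrees of freedom were 4, and the biological coefficient of variation was 0.0597. Quasi-likelihood F tests were adjusted by Benjamini-Hochberg over all 23684 genes tested and called under 0.05. SE values were obtained as the absolute log2 change over the square root of F. CPM are scaled by TMM, and pair differences use log2(CPM + 0.5). For same-numbered libraries, the correlation of deviations from the group mean was 0.63, 0.38 and 0.30 for COLO320DM numbers 1, 2 and 3, and 0.87, 0.66 and 0.48 for SW480. Replicates 2 and 3 also correlated across numbers (0.33 in COLO320DM, 0.56 and 0.69 in SW480), so the pairing comes from the data and mostly sets replicate 1 apart. On simulated counts for the same comparison over 23684 genes, 64% of 100 changed genes were recovered at a log2 change of 0.5 and 87% of 100 at 1, with 13 false calls. Both sets were changed at once, only in SW480 with HKDC1, among genes with a mean of at least 1 CPM in SW480. Libraries were drawn as independent. So many changed genes make the adjusted threshold easier to pass than in the data, where 10 genes passed. These shares are therefore not recovery rates for the data.

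Members and lists (44 gene lists, 792 genes) were chosen with earlier results of these data known. Named genes were the called protein-coding genes with the largest differences, called list members, up to 4 further members of smallest p in each list described, HKDC1, AL596223.2, other hexokinases, and genes of smallest p up to 10 in a direction with fewer calls. Genes of other biotypes were named if among the 5 of smallest p. Alternatives were other blocks, DESeq2 1.42.0, limma-voom (limma 3.58.1), other scaling and filters, and each replicate left out. Ratios carry 95% counting intervals. Promoter windows are from RefSeq (GRCh38.p14), and gene coordinates are those of the deposited table. A gene that this rule names is not reported here.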

Additional observations from a re-analysis of the deposited data

Results flagged for a closer look

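The plasmid effect differed between the lines by the test of the difference itself in 10 genes, with log2 differences (SW480 minus COLO320DM) of 2.06 for HSPA6, −10.23 for HKDC1, −9.1 for AL596223.2, −1.03 for AKNA, −0.71 for UNC5B, −0.68 for EGR1, −0.6 for BMERB1, −0.54 for GTPBP2, −0.52 for EPHA2 and −0.47 for FLNA. In addition, 4 gene lists stood out because every SW480 pair had a median below 0 and every COLO320DM pair a median above 0. These were matrix, integrins and proteases (median difference −0.261), Notch (−0.167), autophagy and lysosome (−0.173) and MHC class I (−0.152), and the difference of the list medians was not tested.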

How the results depend on the processing

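The counts of calls moved with the block and with replicate 1. With no replicate block, the count of genes called was 2 for the difference between lines (HKDC1 and AL596223.2), 3 for SW480 and 2 for COLO320DM, against 10, 180 and 18 with the block. Without the block and without replicate 1, a setting chosen after seeing the data, the counts were 75, 720 and 8, and the 75 included all 10. Limma-voom with the block called 3 for the difference and 4 for COLO320DM, and DESeq2 called 98 for SW480. DESeq2 called 13 for the difference, 8 of them among the 10. No filter on low counts gave 67, 344 and 32, and a mean of at least 1 CPM in each line gave 106 for SW480. Leaving out replicates gave 6 to 139 calls for the difference, 13 to 543 for SW480 and 7 to 31 for COLO320DM. For the difference the count was 6 without COLO320DM replicate 1, COLO320DM replicate 3 or SW480 replicate 2, and of these 5, 5 and 4 were among the 10. It was 32, 139 and 27 without COLO320DM replicate 2, SW480 replicate 1 and SW480 replicate 3, with 9, 10 and 8 among the 10. It was 49, 19 and 85 without replicate 1, 2 or 3 of both lines, with 9, 4 and 9 among the 10. The causes were not tested. The DNAJB1 difference of −0.02 ranged from −0.08 to 0.04 when replicates were left out and turned to 0.01 without COLO320DM replicate 2, to 0.00 without COLO320DM replicate 3, to 0.04 without SW480 replicate 1 and to 0.00 with the GC correction, also added after seeing the data. Over the 76 genes named, 1291 of the recomputed values kept direction and side of the threshold, 49 lost and 83 gained a call, and 4 changed sign. Most of the 76 were not called, so for them keeping the side meant staying uncalled. All 49 losses fell on the 8 called genes other than HKDC1 and AL596223.2. HSPA6 kept its call in 16 of 18 alternatives. Of 19 alternatives, AKNA kept it in 16, EPHA2 and UNC5B in 13, FLNA in 12, BMERB1 and GTPBP2 in 11 and EGR1 in 10. Low counts limit some genes: HSPA6 rests on 21 to 77 counts per library in 3 of the 4 groups. NOTCH3 and SEMA3C in SW480 and ITGB4 and LAMP3 in COLO320DM are limited in the same way.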
